A study of Mus musculus with 18 samples.

Results

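Binding of CREB1 and of JUND, a pair of mouse basic leucine zipper (bZIP) transcription factors, to DNA carrying 5-methylcytosine (5mC) was compared on protein binding microarrays. The comparison used 4 of the 18 arrays of the series, 2 with CREB1 and 2 with JUND, chosen by the protein and the kind of DNA in their labels. Such an array holds many short DNA duplexes, and the protein that stays bound to each is read by fluorescence. In all 4 arrays the protein was the DNA-binding domain with short native flanks, carrying a glutathione S-transferase tag and produced in a cell-free expression kit, not the full-length factor. The printed strand of every probe kept ordinary cytosine, and the strand synthesized on the array carried 5mC at every cytosine, inside and outside CpG, so that the DNA was methylated on 1 strand. For reference, 2 CREB1 and 2 JUND arrays on unmodified DNA were set beside them; the remaining arrays, with ATF1 or with 5-hydroxymethylcytosine, entered the estimate of the spread alone. Whether the 2 arrays of each group used separately made protein is not stated in the labels, so a p-value reflects array-to-array spread alone, possibly technical.

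The bZIP proteins bind as dimers, each basic region reading one side of a short palindrome. CREB1 is the classical binder of the cAMP response element (CRE), whose centre is a CpG, and JUND belongs to the AP-1 family, whose site has the same outer bases and a centre that is shorter by 1 base and lacks the CpG. C/EBP proteins, of the same class, read palindromes of GCAA half-sites, and methylation of the CpG in the CRE is known to reduce CREB1 binding.

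The sites on which the results turn are given as they read on the modified strand, 5′ to 3′, in lower case with every cytosine in capitals, so that a capital marks a 5mC. The first group holds sites defined by their known function, and the second the 8-mers (sequences of 8 bases) that ranked highest or differed most.
CRE palindrome: tgaCgtCa
PAR bZIP palindrome: ttaCgtaa
C/EBP palindrome: ttgCgCaa
CRE-C/EBP chimera: tgaCgCaa
CpG-free composite: tgatgCaa
AP-1 site: tgagtCat
AP-1 site, other strand modified: atgaCtCa
highest with CREB1: CtaCgCaa
largest difference, CREB1 higher: CtaCgtag
high with both proteins: gCaaCaCa
largest difference, JUND higher: CCCagaat
adenine-rich, JUND higher: aaaagaag

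Each array had a deposited z-score for each 8-mer, and 64454 of the 65530 8-mers were kept because at least 10 probes carried them on the modified strand (median 17 probes). Just outside this limit, the 44 8-mers with 9 probes had median z-scores of -0.26 and 0.212 with CREB1 and 0.348 and 0.41 with JUND. Just inside it, the 106 with 10 probes had -0.149 and -0.00474 with CREB1 and 0.225 and 0.0851 with JUND. The highest z-scores with 9 probes were 3.82 and 4.18 with CREB1 and 9.81 and 7.11 with JUND. With 10 probes they were 3.54 and 3.78 with CREB1 and 4.68 and 4.45 with JUND. The limit thus left out 8-mers that were high with JUND. The kept 8-mers were ranked within each array, and each rank was turned into a normal score, the value of a standard normal distribution at that rank, so that 0 is the middle of an array.

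The arrays differed in brightness and in scale. The median probe signal was 1617 and 4592 with CREB1 and 8014 and 7610 with JUND, which was 2.09, 8.34, 14.6 and 4.43 times the local background. The highest z-score was 128 and 60.1 with CREB1 but 10.1 and 13.7 with JUND. A z-score of 4 or more, called bound here, was reached by 1622 and 1250 8-mers with CREB1 and by 530 and 558 with JUND. On both arrays of a protein 888 were bound with CREB1 and 202 with JUND, and 45 were bound on all 4. CREB1 replicate 1 stood apart by its low signal over background: 1774 of its 40330 probes were at or below their local background, against 0, 0 and 87 on CREB1 replicate 2 and JUND replicates 1 and 2. Over all 8-mers, the ranks of CREB1 replicate 2 followed those of JUND replicate 1 (Spearman rho 0.706) slightly more than those of its own replicate (0.694), and the JUND pair had a rho of 0.682. Over single probes, the normal scores of the background-subtracted signal of CREB1 replicate 2 and JUND replicate 1 had a Pearson r of 0.775. This was above the 0.677 of the CREB1 pair and the 0.752 of the JUND pair. These values are descriptions, and the 8-mers share probes. The part of brightness and background in the differences below was not tested.

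At the top of the lists the proteins stood apart more clearly. The 2 CREB1 arrays shared 447 of their 645 highest 8-mers (the top 1%, so 69.3% of each list), and the 2 JUND arrays shared 246 (38.1%). A CREB1 and a JUND array shared between 57 and 121 (8.84% to 18.8%). The very highest CREB1 8-mers were shared more often: of the 20 with the highest mean score with CREB1, 13 and 11 were in the top 1% of JUND replicates 1 and 2. Of the first 100, 34 and 26 were. In the other direction, 6 and 7 of the 20 highest JUND 8-mers were in the top 1% of the CREB1 arrays.

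CREB1 ranked 569 8-mers higher than JUND and JUND ranked 144 higher than CREB1, out of 64454 tested (limma on normal scores, Benjamini-Hochberg adjusted p under 0.05). This is 1.11% of all 8-mers, 0.883% with CREB1 higher and 0.223% with JUND higher, and 79.8% of those that passed had CREB1 higher. All 713 had arrays that did not overlap between the proteins, as did 22.7% of all 8-mers with CREB1 higher and 23.0% with JUND higher. With CREB1 higher, 312 of the 569 averaged a z-score of at least 4 with CREB1 and 235 were bound on both CREB1 arrays. With JUND higher, 67 of the 144 averaged at least 4 with JUND and 46 were bound on both JUND arrays. None of the 713 was bound on any array of the other protein. Few 8-mers were bound at all, 2.52% and 1.94% on the CREB1 arrays and 0.822% and 0.866% on the JUND arrays. A bound 8-mer ranks near the top, where the other protein can hardly rank it higher, so this count is no separate support. The count rested on every array: 1 and 79 8-mers passed without CREB1 replicates 1 and 2, and 376 and 35 without JUND replicates 1 and 2. The scale moved the count and the split in both directions, to 69.2% with CREB1 higher among 1389 on the deposited z-scores, 59.6% among 4040 on log2 signals and 88.2% among 287 on percentile ranks. On the ranks of raw signals 690 passed, 79.7% with CREB1 higher.

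**Figure D1:**
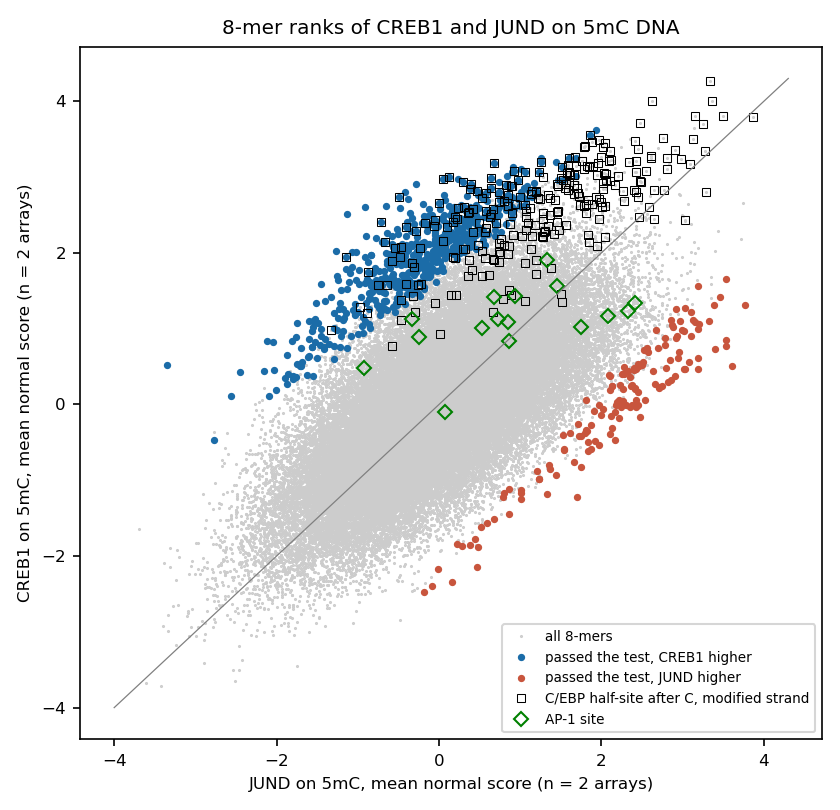
Mean normal score of each 8-mer with CREB1 (vertical axis) against JUND (horizontal axis) on 5mC DNA, 2 arrays each, unitless; the line marks equal scores. The 569 8-mers that passed with CREB1 higher lie above the line and the 144 with JUND higher below it, squares (C/EBP half-sites preceded by C) lie mostly above it, and diamonds (AP-1 sites) lie on both sides of it.

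Sites built on GCAA, the half-site that C/EBP proteins read, made up a large share of the CREB1 side. GCAA was in 27.2% of the CREB1-higher 8-mers, against 1.98% of all 8-mers and 1.39% of the JUND-higher ones. Outside the named bZIP sites, 57 of 239 8-mers with CGCAA on the modified strand passed with CREB1 higher and 0 with JUND higher. Their median normal scores were 2.64 and 2.63 with CREB1 and 1.29 and 1.12 with JUND, so the list was above the middle of all 4 arrays and the groups did not overlap. With CGCAA on the unmodified strand, 3 of 239 passed, and the medians were 0.526 and 0.618 against -0.125 and -0.075. GCAA after a base other than C gave 76 of 760 with CREB1 higher and 2 with JUND higher on the modified strand, and 28 of 751 and 0 on the other.

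The 5 8-mers with the highest CREB1 scores all held CGCAA, and none of them passed the rank test. CtaCgCaa was first on both CREB1 arrays (z-scores 128 and 60.1) and ranked 12 and 64 on the JUND arrays (7.96 and 6.22). Its groups did not overlap, but the difference in normal score was 0.94 ± 0.33 (SE; adjusted p = 0.178). The 4 next were aCgCaata, taCgCaat, CaCgCaat and CgCaataC, of which all but CaCgCaat are the same sequence read further along, so that they share probes. CgCaataC was first on JUND replicate 1 (z-score 10.1) and ranked 210 on replicate 2, against 5 and 5 with CREB1. Ranks place these sites near the top of both proteins, while the signal relative to the array median differed. CtaCgCaa probes were 45.2 and 15.6 times the array median with CREB1 and 2.4 and 2.41 times with JUND. Their median signal above background was 37286 and 62580 with CREB1 and 17825 and 13981 with JUND. The array medians were lower with CREB1, so the multiples differ more than the signals do. On log2 signals, centred on the median of each array, the difference of CtaCgCaa was 3.16 ± 0.43 (SE, limma adjusted p = 5.89e-06). Each of the other 4 also passed on that scale, with differences from 2.82 to 3.63. Of the 16 probes of CtaCgCaa, 3 and 10 were saturated on CREB1 replicates 1 and 2, so the median signal on replicate 2 is a lower limit.

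The CRE-C/EBP chimera, which joins a CRE half-site to GCAA with a CpG between, behaved like these. tgaCgCaa ranked 4 and 7 with CREB1 (z-scores 103 and 42.4) and 4 on JUND replicate 1 (10.0); its deposited cell for JUND replicate 2 was empty, so 1 JUND array entered its fit. The difference was -0.07 ± 0.38 (SE; adjusted p = 0.957). Under 3 alternatives it turned to CREB1 higher and passed, at 62.9 on the deposited z-scores (limma adjusted p = 0.00777), 2.34 on log2 signals (0.0238) and 1.98 in normal scores of raw signals without saturated probes (0.0028). By raw signal it ranked 6 and 7 with CREB1 and 2 and 6 with JUND, at 32.7 and 11.1 times the array median against 2.77 and 3.02 times. With the other strand modified, ttgCgtCa had z-scores of 5.12 and 5.11 with CREB1 and 0.874 and 1.27 with JUND (difference 1.31 ± 0.55, adjusted p = 0.268). Of the 15 8-mers of the chimera on the modified strand 3 passed with CREB1 higher, and of the 15 on the other strand 2.

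Single substitutions showed which bases of this site mattered for CREB1; positions count from 1 at the 5′ end of the modified strand. T1C kept 79.2% and 96.0% of the CREB1 z-score of tgaCgCaa, and C4T, which removes the CpG, kept 74.3% and 86.7%. Other changes of these bases kept far less, T1A 14.1% and 11.5% and T1G 9.68% and 16.6%. C4A and C4G, which also remove the CpG, kept 2.27% and 0.84% and 4.78% and 12.4%. G2T kept 64.3% and 66.9%, and C6T, which turns GCAA into GTAA, kept 47.5% and 42.0%. The other changes of G2 and C6 kept at most 33.2% (G2C on replicate 2). Changes at position 5, the G of the CpG, left between 1.08% and 3.91% on CREB1 replicate 1 and between 0.777% and 8.23% on replicate 2. With JUND, T1C gave z-scores of 7.99 and 5.41 and C4T gave 2.77 and 3.07.

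**Figure D2:**
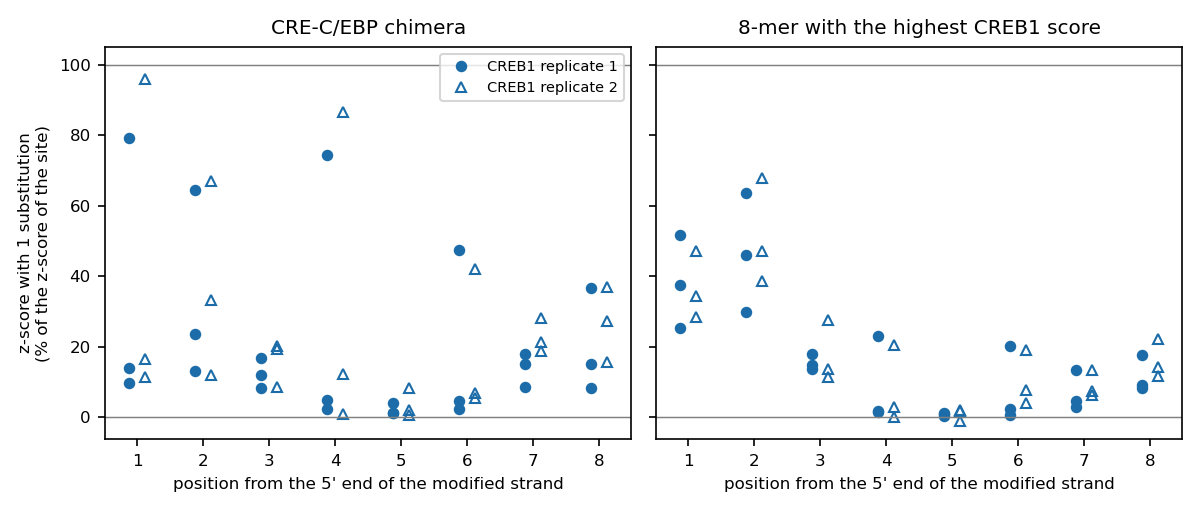
CREB1 z-score on 5mC DNA after each single substitution, as a percentage of the z-score of the unsubstituted site (vertical axis), by position (horizontal axis), for tgaCgCaa (left) and CtaCgCaa (right); circles and triangles are the 2 CREB1 arrays. Substitutions at position 5 lie between -1.14% and 8.23% in both sites, and the highest values of the right panel, up to 67.7%, are at position 2. On replicate 2, 6 of the 17 probes of tgaCgCaa and 10 of the 16 of CtaCgCaa were saturated, so percentages there are relative to a capped signal.

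Of the 24 single substitutions of CtaCgCaa 9 passed with CREB1 higher, and of the 24 of tgaCgCaa 4; none passed with JUND higher. In the 4 that follow JUND was near or below the middle of the array and CREB1 near its top; they were chosen after their values were seen. tgaggCaa, C4G of tgaCgCaa, showed the same order but did not pass (4.95 and 5.26 with CREB1, 0.338 and 0.155 with JUND, adjusted p = 0.0715). From CtaCgCaa, A8G gave CtaCgCag, with z-scores of 10.7 and 8.6 with CREB1 and -0.597 and -0.97 with JUND (difference 3.52 ± 0.51, adjusted p = 0.00142). A3C gave CtCCgCaa, with 19.1 and 8.18 against -0.0977 and -0.759 (3.23 ± 0.51, adjusted p = 0.00209). C6T gave CtaCgtaa, with 25.9 and 11.4 against -0.137 and -0.368 (3.19 ± 0.51, adjusted p = 0.0024). C4T gave CtatgCaa, with 29.7 and 12.3 against 0.43 and 0.105 (2.73, adjusted p = 0.00152), where the CpG is lost. In each of the 4, both CREB1 arrays were above both JUND arrays. All 713 8-mers that passed lacked overlap, as did 22.7% of all 8-mers with CREB1 higher, so this is no separate support.

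The bases around the half-site moved the CREB1 level. Before CGCAA, the median z-score with CREB1 was 32.8 and 19.6 after A (48 8-mers), 13.9 and 8.69 after G, 10.8 and 5.36 after T and 8.48 and 4.72 after C. JUND gave 2.39 and 2.43 after A and 0.629 and 0.581 after T, and the largest number passed with T before CGCAA (22 of 48, against 10, 10 and 6 of 48, 48 and 47 with A, G and C). After CGCAA, T gave the highest CREB1 medians (30.4 and 16.0) and A the lowest (6.24 and 2.39). Directly before GCAA, C gave medians of 13.4 and 8.37, T 6.72 and 3.58, A 3.23 and 1.02 and G 1.42 and 0.87. The sites with a CpG or with TpG there were thus the higher ones on both CREB1 arrays, and 63 of 255 and 75 of 256 of them passed, against 1 of 256 with A and 4 of 256 with G.

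The CpG-free composite, in which T replaces the C of the CpG, separated the proteins clearly. tgatgCaa ranked 10 on both CREB1 arrays (z-scores 76.8 and 36.8) and 2000 and 1437 on the JUND arrays (2.77 and 3.07), a difference of 1.68 ± 0.36 (SE; adjusted p = 0.0144). ttatgCaa, which keeps GCAA but has no CRE half-site, had 37.2 and 23.7 with CREB1 and 1.46 and 1.79 with JUND (1.99 ± 0.37, adjusted p = 0.00721). Both lost the call without CREB1 replicate 1 or 2 or JUND replicate 2, and tgatgCaa also without JUND replicate 1 (adjusted p from 0.075 to 0.273 and from 0.0825 to 0.176). On percentile ranks neither passed (limma adjusted p = 0.902 and 0.597). Of 15 composite 8-mers 6 passed with CREB1 higher on the modified strand and 1 of 15 on the other. When the strands were exchanged, ttgCatCa had only 2.88 and 0.36 with CREB1 and -0.0372 and -0.00133 with JUND.

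The CRE and PAR palindromes passed with CREB1 higher. The CRE core list had median normal scores of 2.15 and 1.87 with CREB1, below those of the CGCAA list and above the 1.81 and 1.14 of GCAA after another base. The CRE palindrome tgaCgtCa had z-scores of 33.7 and 12.0 with CREB1 and 3.22 and 1.66 with JUND. It ranked 52 and 129 against 1210 and 6359, so the groups did not overlap (difference 1.33 ± 0.34, adjusted p = 0.0454). The call was lost on the deposited z-scores and percentile ranks and without CREB1 replicate 1 or 2 or JUND replicate 2, and in 2 other fits, with adjusted p from 0.000218 to 0.713 over 20 alternatives. Of 15 CRE core 8-mers 5 passed with CREB1 higher, and of 80 CRE half-site 8-mers 9; none passed with JUND higher. tgaCgtaa, a CRE half-site followed by TAA, had z-scores of 49.1 and 17.8 with CREB1 and 3.36 and 3.45 with JUND (1.07 ± 0.38, adjusted p = 0.181).

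The PAR bZIP site, read by factors such as DBP and HLF, gave the largest share. Of its 15 8-mers 10 passed with CREB1 higher, with median normal scores of 2.41 and 1.88 with CREB1 and 0.163 and -0.174 with JUND. ttaCgtaa had z-scores of 16.3 and 6.39 with CREB1 and 0.181 and 0.662 with JUND (difference 2.22 ± 0.37, adjusted p = 0.00317; the call was lost on the deposited z-scores and without CREB1 replicate 1, with adjusted p up to 0.568). The C/EBP palindrome ttgCgCaa had z-scores of 32.0 and 23.3 with CREB1 (ranks 62 and 33). With JUND it had 3.77 and 3.99 (ranks 707 and 566), just under the bound limit. The arrays did not overlap, but the rank test was not passed (0.86 ± 0.38, adjusted p = 0.307). On log2 signals it passed with CREB1 higher (2.01 ± 0.31, limma adjusted p = 4.96e-05). Of the 15 8-mers of this palindrome, 5 passed the rank test with CREB1 higher.

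The 10 largest differences with CREB1 higher were mostly of 2 kinds. CtaCgtag had z-scores of 11.2 and 6.39 with CREB1 and -0.659 and -1.23 with JUND, and ranked 339 and 454 against 49947 and 60328 (difference 3.65 ± 0.45, adjusted p = 0.000256). With CCtaCgta (3.28), CtaCgtCa (3.23) and CtaCgtaa (3.19) it forms a TACGT group. Of the CREB1-higher 8-mers 5.98% held TACGT, against 0.397% of all. The group was not particular to 5mC DNA. On unmodified DNA CtaCgtag had 40.2 and 67.7 with CREB1 and -0.261 and -0.337 with JUND. The other members of the group also had CREB1 higher there without overlap, as did 26.0% of all 8-mers. The second kind held CGCA or GCAA, as in CtaCgCag (3.52), tgCaagag (3.30), CtCCgCaa (3.23), CgCaagCt (3.12) and agtCgCaa (3.10). CgCCaCgC (3.12), with neither, was the remaining one. All 10 ranked below the middle of at least 1 JUND array. Each was picked by its difference, which was larger than its mean CREB1 score, so this had to follow and is no separate support. Without CREB1 replicate 1, 9 of the 10 lost the call, all but CtaCgtag (adjusted p from 0.0752 to 0.228), and without JUND replicate 2, 5 did. On the deposited z-scores 4 of the 10 lost it, CtaCgtag among them (limma adjusted p = 0.456, the highest of the 10 over all alternatives). Of the 569 CREB1-higher 8-mers, 72.1% held a CpG, against 38.2% of all and 19.4% of the JUND-higher ones. The reverse complement passed in the same direction for 58 of the 569 and for 0 of the 144 JUND-higher 8-mers. Over all 8-mers 0.883% and 0.223% passed in these directions, so the 0 says little about the strand. Some of the 569, such as CtaCgtag, are their own reverse complement.

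AP-1 sites, the known targets of JUND, gave no 8-mer that passed on 5mC DNA. tgagtCat had z-scores of 5.89 and 2.32 with JUND and 3.77 and 0.621 with CREB1, which overlap (difference -1.10 ± 0.64, adjusted p = 0.466). atgaCtCa had 2.79 and 0.898 with JUND and 4.49 and 2.95 with CREB1 (0.59 ± 0.50, adjusted p = 0.648). Among the 8 8-mers of each orientation 0 passed in either direction, and the median normal scores were 0.803 and 0.442 with JUND against 1.13 and 1.01 with CREB1 where the modified strand reads TGACTCA. Where it reads TGAGTCA, they were 1.83 and 0.627 against 1.74 and 0.62. Of the 8 TGACTCA 8-mers, 4 did not overlap with CREB1 higher and 1 with JUND higher, against 22.7% and 23.0% of all. Of the 8 TGAGTCA 8-mers, 0 and 1 did. On simulated data the fit recovered 17 of 50 8-mers shifted by 2 before ranking. The absence of calls therefore cannot show that the proteins ranked AP-1 sites alike.

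JUND itself bound AP-1 strongly without methylation. On unmodified DNA tgagtCat ranked 1 on both JUND arrays, with z-scores of 106 and 34.5, and atgaCtCa ranked 3 on both, with 82.8 and 21.6. CREB1 gave 8.05 and 10.9 and then 5.45 and 8.15 for the same 8-mers on unmodified DNA. The median normal score of the TGACTCA list was 3.54 and 3.44 with JUND on unmodified DNA. A CpG variant in which C replaces the first T of AP-1 did not pass either. On 5mC DNA CgagtCat had 4.93 and 2.8 with JUND and 6.07 and 3.45 with CREB1 (difference -0.22 ± 0.54, adjusted p = 0.9). Of the 16 8-mers of this variant on each strand, 0 passed.

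**Figure D3:**
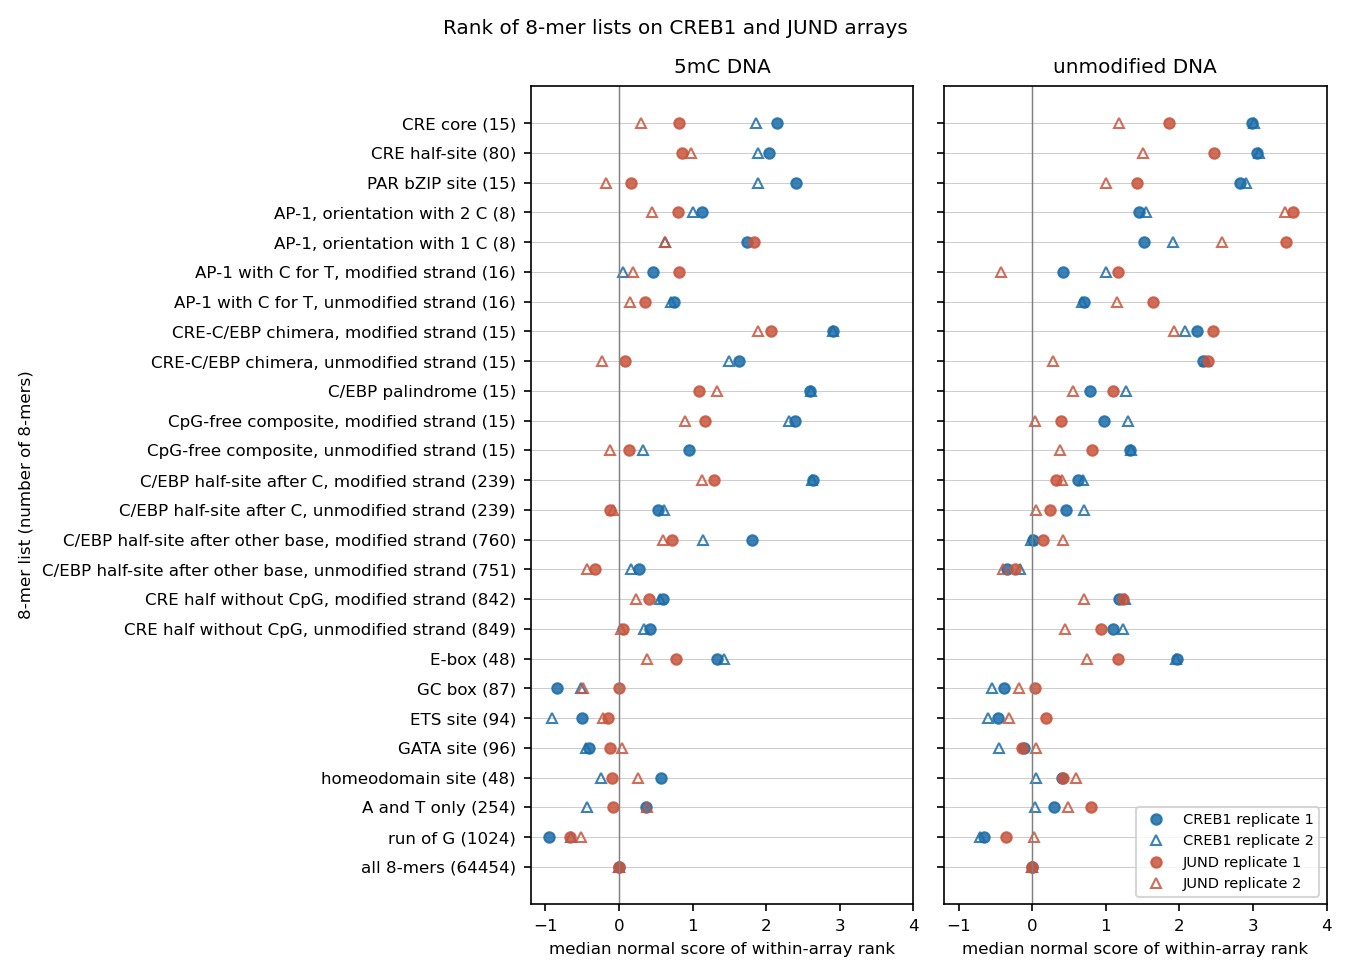
Median normal score of each list of 8-mers (horizontal axis, unitless; 0 is the middle of an array) on 5mC DNA (left) and unmodified DNA (right), with the number of 8-mers in brackets; blue is CREB1, red JUND, filled circles replicate 1 and open triangles replicate 2. On 5mC DNA the GCAA, CRE and PAR lists lie further right with CREB1, and the AP-1 lists, at 3.54 and 3.44 with JUND on unmodified DNA in the orientation with 2 cytosines, overlap or nearly meet those of CREB1.

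Of the 144 JUND-higher 8-mers, 136 were in no list and 2 held GCAA after a base other than C. Most of all 8-mers are in no list too, so the 136 are not read as a trait of the JUND side. Of the 569 CREB1-higher ones, 367 were in no list. The 144 were rich in adenine. They held a mean of 3.89 adenines and 0.847 thymines, against 2.02 and 2.01 in all 8-mers, and 14.6% held AAAA, against 1.59%. CCCagaat, carried by 11 probes, had z-scores of 5.73 and 13.7 with JUND and 0.126 and 1.10 with CREB1. It ranked 103 and 1 against 29416 and 12009 (difference -3.11 ± 0.60, adjusted p = 0.00845). aaaagaag had 6.34 and 10.3 with JUND and 0.48 and 1.46 with CREB1 (-2.76 ± 0.47, adjusted p = 0.00354). gaaCggaa (-2.73), aaaaCaaa (-2.68), CaaaCgga (-2.67), CCgaaaaa (-2.64), CCCataga (-2.58), aggatagt (-2.57), gaaaagaa (-2.55) and aaagaaaa (-2.54) completed the 10 largest. Each of the 10 lost its call without CREB1 replicate 1 (adjusted p from 0.0935 to 0.428), without JUND replicate 2 (0.0871 to 0.302) and on percentile ranks (0.123 to 0.519). Without CREB1 replicate 2, 8 of the 10 lost it, and without JUND replicate 1, 3 did. None of these 10 holds a bZIP half-site TGAC or GCAA, but only 1270 and 1277 of the 64454 8-mers hold them, so this says little.

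Of the 5 8-mers with the highest mean score over both JUND arrays on 5mC DNA, CCCagaat and aaaagaag are given above. tgaCgCaa, at rank 4 on JUND replicate 1 and with no value on replicate 2, did not enter this order. aataaaCC came first, with z-scores of 7.76 and 10.7 against 1.9 and 1.78 with CREB1 (difference -2.45 ± 0.47, adjusted p = 0.00795). aaaaatag had 7.84 and 7.76 against 2.63 and 2.7 (-1.89 ± 0.40, adjusted p = 0.0151). Without CREB1 replicate 1, CREB1 replicate 2 or JUND replicate 2 neither passed, nor did aaaaatag without JUND replicate 1; over all alternatives their adjusted p reached 0.798 and 0.826, both on percentile ranks. The remaining one, gCaaCaCa, was high with both proteins, at 9.94 and 8.34 with JUND and 13.3 and 8.58 with CREB1 (-1.08 ± 0.41, adjusted p = 0.212). In signal, CCCagaat probes were 2.02 and 4.4 times the array median with JUND, at ranks 67 and 1 by raw signal. The aataaaCC probes were 2.38 and 3.38 times, at ranks 14 and 3. For comparison, CtaCgtag, the largest difference with CREB1 higher, was at 4.46 and 2.26 times the array median with CREB1.

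The number of adenines went with rank on both JUND arrays and on CREB1 replicate 1. The median normal score ran from -0.684 and -0.832 with 0 adenines to 0.701 and 1.07 with 5 or more on the JUND arrays, and from -0.58 to 0.531 on CREB1 replicate 1. CREB1 replicate 2 ran from -0.405 to 0.12 with 3 adenines and was 0.0109 with 5 or more. The median difference between the proteins went from 0.266 with 0 adenines to -0.615 with 5 or more. With cytosine the arrays of one protein went different ways: with 5 or more cytosines the medians were -0.352 and 0.0433 with CREB1 and 0.239 and -0.109 with JUND. A CpG went with a median difference of 0.144, against -0.0795 without one.

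**Figure D4:**
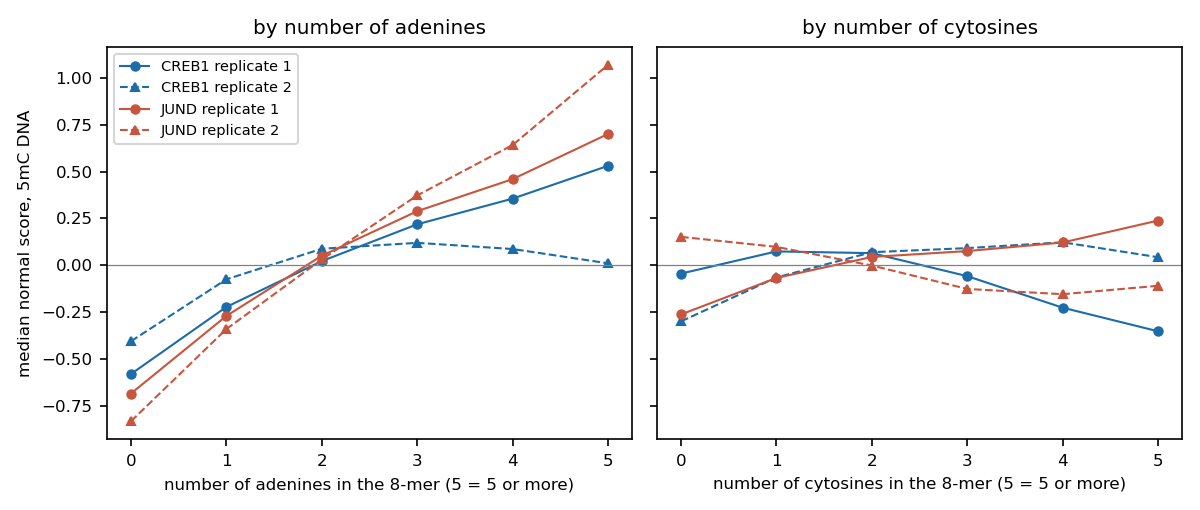
Median normal score on 5mC DNA (vertical axis, unitless) of 8-mers by their number of adenines (left) and cytosines (right) on the modified strand; 5 stands for 5 or more, solid lines are replicate 1 and dashed lines replicate 2. With adenines both JUND arrays rise to 0.701 and 1.07, CREB1 replicate 1 rises to 0.531 and CREB1 replicate 2 levels off; with cytosines the replicates of each protein part.

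Few 8-mers with sites of other factor families passed, but several of these lists were shifted, so they are not neutral controls. Of 48 E-box 8-mers 2 passed with CREB1 higher, against 0.883% of all 8-mers. Without overlap and with CREB1 higher were 32 of the 48, against 22.7% of all. The E-box median difference was 0.763, against -0.0232 over all 8-mers. The GC-box, ETS and GATA lists had median differences of -0.376, -0.479 and -0.377. In these lists 38 of 87, 43 of 94 and 43 of 96 did not overlap with JUND higher, against 23.0% of all. Over all 8-mers 0.223% passed with JUND higher. With JUND higher, 1 of 87 GC-box, 1 of 94 ETS, 2 of 96 GATA, 1 of 254 A and T only and 1 of 1024 GGGG-run 8-mers passed, and 0 of 48 homeodomain 8-mers did. TGAC in 8-mers without CpG, outside AP-1, gave 8 of 842 on the modified strand and 8 of 849 on the other, all with CREB1 higher, a share near the 0.883% of all 8-mers. Only 2 of the 1024 8-mers with a CCCC run met the probe minimum, and neither passed. CCaCgtgg and ttaattaa, an E-box and an A and T control, did not pass (adjusted p = 0.398 and 0.99).

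Single probes gave a like contrast from the signals alone, without the z-scores. Of 40330 probes, 520 ranked higher with CREB1 and 69 with JUND (limma on normal scores of the background-subtracted signal, adjusted p under 0.05), which is 1.29% and 0.171%, and 1.46% together. CGCAA was on the modified strand of 31.0% of the CREB1-higher probes, of 2.96% of all probes and of 0 of the JUND-higher ones; TGACG was in 23.5%, against 2.98% of all. AAAA was in 23.2% of the JUND-higher probes, against 9.18% of all. The count was 3 and 138 without CREB1 replicates 1 and 2 and 120 and 46 without JUND replicates 1 and 2, and 88.3% of the probes that passed had CREB1 higher, which became 76.4% on log2 signals, 77.9% without background subtraction and 98.9% on percentile ranks.

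By motif, the 1193 probes with CGCAA stood at median percentiles of 94.8 and 90.6 with CREB1 and 67.7 and 65.5 with JUND, and the 67 with TGACGCA at 98.3 and 96.9 against 79.9 and 76.0. The 146 probes with an AP-1 site stood at 67.5 and 56.3 with JUND and 73.0 and 61.0 with CREB1 on 5mC DNA. On unmodified DNA, the AP-1 probes stood at 98.5 and 94.8 with JUND. The probes below show the 2 largest differences in each direction on the strand that carried 5mC, with CGCAA, GACG and runs of AAAA in capitals where present; the last holds none of these.
CREB1 higher, first: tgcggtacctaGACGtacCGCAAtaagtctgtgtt
CREB1 higher, second: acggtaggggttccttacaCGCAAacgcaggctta
JUND higher, first: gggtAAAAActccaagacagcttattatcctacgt
JUND higher, second: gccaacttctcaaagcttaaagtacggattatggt
The first had signals of 18298 and 9864 with CREB1 and 2464 and 4202 with JUND, above backgrounds of 1400 and 694 and of 331 and 1983 (difference in normal score 3.88 ± 0.65, adjusted p = 0.00618). The second had 11895 and 24668 with CREB1 and 5073 and 4933 with JUND (3.52 ± 0.56, adjusted p = 0.0043). The third had 15348 and 38843 with JUND and 1092 and 1823 with CREB1 (-3.69 ± 0.79, adjusted p = 0.0195). Its signal on CREB1 replicate 1 was below the local background of 1217.5, so its rank there comes from a value below 0. The fourth had 35297 and 65528 with JUND, the latter saturated, and 1592 and 6627 with CREB1 (-2.76 ± 0.54, adjusted p = 0.0117).

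Whether the CREB1 to JUND difference itself depended on methylation was tested as the difference on 5mC DNA minus that on unmodified DNA. No 8-mer of 64454 passed in limma on normal scores (0.0%), with 5472 at an unadjusted p under 0.05 and a lowest adjusted p of 0.055. On simulated data the same fit recovered 0, 8, 16 and 21 of 50 8-mers shifted by 2, 3, 4 and 5 before ranking. The absence of calls therefore cannot show that the difference was alike on both kinds of DNA. On other scales 2286 passed on the deposited z-scores and 1261 on log2 signals, with 16.4% and 29.3% of them shifted towards CREB1 on 5mC DNA. The values side by side for the main sites follow as a description. The CRE palindrome tgaCgtCa had 193 and 136 with CREB1 and 69.1 and 13.9 with JUND on unmodified DNA (ranks 1 and 3 against 6 and 8), where on 5mC DNA JUND had it at ranks 1210 and 6359. CtaCgCaa had 14.7 and 26.0 with CREB1 and 0.766 and 0.434 with JUND on unmodified DNA, at ranks 508 and 406 against 15509 and 21764; on 5mC DNA it ranked 1 and 1 against 12 and 64, so both proteins ranked it higher there. ttatgCaa had 1.68 and 3.14 with CREB1 and 0.237 and 1.11 with JUND on unmodified DNA, below its 37.2 and 23.7 with CREB1 on 5mC DNA. For atgaCtCa the difference of differences was 2.60 ± 0.70 (SE; adjusted p = 0.252), and for ttaCgtaa 1.81 ± 0.52 (adjusted p = 0.289).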

How the data were processed

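Members, lists and alternatives were chosen with earlier results of these data known. The authors' probe files hold, per the file headers, the median intensity and median local background of 40330 probes with 35 variable bases, and their table holds a z-score for each 8-mer. The authors' formula for this score, as deposited, and the scanner they used were not given in the sources used here. Each z-score column ranked best with the signals of its own array on the strand opposite the printed one (Spearman rho 0.957 to 0.975). Of 6 empty cells, 3 fell on JUND 5mC replicate 2 and stayed missing.

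8-mers with 10 or more probes were ranked within arrays, and the ranks (offset 0.375) became normal scores. limma 3.58.1 (R 4.3.3) fitted 1 mean per group over all 18 arrays with empirical Bayes moderation and a trend, two-sided, with Benjamini-Hochberg adjustment at 0.05; the fits were tested on simulated data. Probes were fitted likewise on signal minus background. Named 8-mers were 18 key sites, the 10 largest differences each way that passed without overlap and with a mean z-score of 4 or more, the 5 highest per protein, and 2 probes each way. Log2 signals used normexp (offset 50) and were centred on the median of each array. Signals of 65000 or more counted as saturated. The number of arrays limits precision. Replicate numbers did not pair arrays (correlation of same-numbered deviations -0.152). Python 3.11.15 with numpy 2.4.6, pandas 2.3.3, scipy 1.17.1 and matplotlib 3.10.9 did the rest.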

Additional observations from a re-analysis of the deposited data

Results flagged for a closer look

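By rank, tgCaagag had opposite differences on the 2 kinds of DNA, with no overlap between the ranks of the proteins on either, while the z-scores on unmodified DNA overlap. On 5mC DNA it had z-scores of 7.29 and 2.73 with CREB1 and -0.942 and -1.15 with JUND, whereas on unmodified DNA it had -1.41 and -1.14 with CREB1 and -0.769 and -1.25 with JUND, ranking 62355 and 60872 against 51881 and 59225. The difference of differences in normal score was 3.89 ± 0.71 (SE; limma adjusted p = 0.055), which did not pass the test. Over all 8-mers, 3840 (5.96%) had opposite signs without overlap. The cause was not tested.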

How the results depend on the processing

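The count of 713 8-mers became 307 with all CREB1 and JUND arrays alone, 365 without the trend, 287 on percentile ranks, 1543 with array weights, 1389 on deposited z-scores, 4040 on log2 signals, 2437 with the 5mC arrays alone, 1712 with the arrays of the contrast alone, and 1822 without the JUND 5hmC arrays, an alternative added after seeing the data. With CREB1 higher were 64.9% on the 5mC arrays alone and 65.2% on the contrast alone. It was 655, 718 and 810 with 15, 5 or no minimum of probes, 690 on raw signals and 724 without saturated probes, and without single arrays 1 to 376. With the replicate number as a block 699 passed, with the numbers of JUND crossed, added after seeing the data, 701, and the block gave 510 probes and 0 differences of differences. Probes went from 589 to 271 with CREB1 and JUND arrays, 227 without the trend, 188 on percentile ranks, 1663 with array weights, 1325 without background subtraction, 1614 on log2 signals, 1599 on the contrast alone (68.1% with CREB1 higher), 591 without saturated probes, and 3 to 138 without single arrays. The count of 0 differences of differences became 44 with array weights, 2286 on z-scores, 1261 on log2 signals, 8 with no probe minimum, 1 on the contrast alone, 3 on percentile ranks, 111 without the JUND 5hmC arrays, and 0 to 3 without single arrays. The mean overlap between proteins was 13.3% at the top 1% and 24.5% at the top 5%. tgaCgCaa turned from -0.07 to 62.9 on z-scores, 2.34 on log2 signals and 1.98 without saturated probes, and passed on each. Over 908 values of 46 named 8-mers, 773 kept direction and call, 97 lost the call, 35 gained it and 3 reversed, and 299 of 312 list medians stayed within the spread between arrays. The causes were not tested. The small range of JUND signal above the array median limits what can be ranked there.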

Other observations

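Tetranucleotides were compared over all kept 8-mers that hold them on the modified strand on 5mC DNA, named sites included. By the median difference in normal score, GCAA (0.869), ACGC (0.77), CGCA (0.747), TGCA (0.731) and TTGC (0.641) stood highest with CREB1. GGAA (-0.608), AAAA (-0.565), CCCA (-0.556), GAAA (-0.527) and GAAC (-0.521) stood highest with JUND once CCCC, with 2 8-mers kept, is left aside. GGAA 8-mers had medians of -0.329 and -0.39 with CREB1 and 0.125 and 0.31 with JUND, so they lay on opposite sides of the middle. Thymine went the other way from adenine: with 5 or more thymines the medians were -0.911 and -0.569 with JUND and -0.54 and -0.684 with CREB1, against 0.574 and 0.417 and 0.15 and 0.251 with 0 thymines.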
